A study of Mus musculus with 24 samples.

Results

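The cytosolic ribosomal protein genes were examined in RNA sequencing of the eyes of 12 mice. The family was taken by name, as the protein-coding genes called Rpl or Rps followed by a number, with an optional ending for named paralogs, together with Rplp0, Rplp1, Rplp2 and Rpsa. This gave 83 of the 56748 genes in the deposited table, of which 52 belong to the large subunit by name and 31 to the small subunit. Of the 83, 7 are named paralogs of another member (Rpl3l, Rpl7l1, Rpl10l, Rpl22l1, Rpl36al, Rpl39l and Rps27l). No expression value was used in the choice. The PRDM13-OE mice were heterozygous for a cassette knocked into Rosa26 on a C57BL/6J background, in which the ubiquitous EF-1α promoter drives the doxycycline-dependent activator and the TRE3G promoter drives HA-tagged human PRDM13. PRDM13-OE mice and their wildtype littermates either stayed untreated or, from P28, drank water with 2 mg/mL doxycycline (dox) and 10% sucrose for 72 hours, so that sucrose and dox cannot be told apart. The neural retina and the remaining eye cup (RPE, choroid and sclera) of each mouse were sequenced separately, which gave 24 libraries in 8 groups of 3. The activator is driven in every tissue, so an effect in a photoreceptor cannot be told apart from one in another cell of the same sample.

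Ribosomal proteins join ribosomal RNA to form the small subunit, which reads the mRNA, and the large subunit, which joins the amino acids. Their mRNAs usually start with an unbroken run of pyrimidines, the terminal oligopyrimidine motif, through which mTORC1 and LARP1 control their translation, and the proteins are made in near-equal numbers in most cells. Photoreceptors depend on steady protein synthesis because they rebuild their outer segments every day. The mouse genome also carries many processed copies of these genes, made by reverse transcription of their mRNAs, and sequencing reads from a gene and from such a copy can be hard to tell apart.

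The genes lay on 19 chromosomes, with 14 on chromosome 7 and 4 on chromosome X, and 29 of them held an annotated small nucleolar RNA gene on the same strand. Near-identical copies elsewhere in the genome, at 95% identity or more, were found among annotated transcripts for 71 of the 83 genes. There were 536 copies in all and 56 for Rpl21 alone. Rps27, a zinc-finger protein of the small subunit, is the clearest case. In the GENCODE annotation of GRCm39 it lies on the minus strand of chromosome 3 between 90119819 and 90120977, and the copy Rps27rt lies on chromosome 9 between 114811434 and 114811807. Their coding sequences are the same in all 252 bases, whereas the paralog Rps27l, also on chromosome 9 (66853340 to 66856808), differs at 60 positions (76.19% identity). The coding sequences from that annotation are given here because they show which of these genes a read can separate. Rps27rt is not repeated, since it is identical to Rps27, and the capitals in Rps27l mark the bases that differ from Rps27.
Rps27: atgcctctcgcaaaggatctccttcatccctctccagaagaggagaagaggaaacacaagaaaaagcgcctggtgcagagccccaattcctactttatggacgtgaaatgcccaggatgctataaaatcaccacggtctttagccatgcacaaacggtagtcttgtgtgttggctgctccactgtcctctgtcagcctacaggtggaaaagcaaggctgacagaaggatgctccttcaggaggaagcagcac
Rps27l: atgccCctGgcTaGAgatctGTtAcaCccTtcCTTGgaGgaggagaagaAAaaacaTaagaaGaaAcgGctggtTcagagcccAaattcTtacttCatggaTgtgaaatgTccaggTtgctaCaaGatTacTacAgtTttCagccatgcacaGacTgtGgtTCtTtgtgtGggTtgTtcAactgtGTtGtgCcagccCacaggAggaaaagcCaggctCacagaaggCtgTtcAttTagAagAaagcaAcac

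Rps10, a protein near the mRNA entry of the small subunit, and its processed copy Rps10-ps2 on chromosome 16 (20640895 to 20641390) differ at only 5 of 495 coding bases (98.99% identity). These 5 differences all fall in the last 115 coding bases, which are shown from base 381 to base 495, with the differing bases of the copy in capitals.
Rps10: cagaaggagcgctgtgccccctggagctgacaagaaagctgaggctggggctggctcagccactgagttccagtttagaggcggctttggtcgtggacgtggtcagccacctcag
Rps10-ps2: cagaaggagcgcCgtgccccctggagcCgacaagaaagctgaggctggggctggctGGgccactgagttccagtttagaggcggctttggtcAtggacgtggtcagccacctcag

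The 5′ ends were read from the RefSeq promoter table of GRCm38.p6, where 63 of the 83 genes had an entry. A run of at least 8 pyrimidines (C or T, on the strand of the gene) lay between 50 bases before and 20 bases after the start in 38 of the 63 (60.3%), compared with 8396 of 27025 genes in all (31.1%). Rps6, the substrate of the S6 kinases, and Rpl10a, a protein of the L1 stalk, are shown because the retina results below turn on them, with the run in capitals. The Rps6 window is chr4:86857348-86857417 on the minus strand. The Rpl10a windows, at 2 listed starts, are chr17:28328421-28328490 and chr17:28328515-28328584 on the plus strand. Neither Rpl10a window held a run of that length.
Rps6: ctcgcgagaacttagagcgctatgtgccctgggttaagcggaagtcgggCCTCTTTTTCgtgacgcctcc
Rpl10a, the first start: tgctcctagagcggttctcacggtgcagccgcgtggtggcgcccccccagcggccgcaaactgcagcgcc
Rpl10a, the second start: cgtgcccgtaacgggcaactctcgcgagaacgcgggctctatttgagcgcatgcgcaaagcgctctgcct

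The 24 libraries held between 15825059 and 24908314 counted reads. The human transgene is not a row of the table, and mouse Prdm13 had 775 to 1097 counts in every retina, so neither checked the genotype. The gene model Gm13394 had at least 3290 counts in both tissues of 5 of the 6 PRDM13-OE mice, but 79 and 62 counts in the mouse labelled PRDM13-OE untreated replicate 1, compared with 32 to 135 in the wildtype libraries. What drives Gm13394 was not tested, and some results that rest on that mouse, where stated below, are also given without it. In eye cups the rod list of 10 genes held 0.306% to 5.23% of all counts, and 4 markers of the surface epithelium of the cornea and conjunctiva (Krt5, Krt12, Krt14 and Aldh3a1) held 0.0546% to 2.98%. Both tissues are outside the labelled RPE, choroid and sclera, and none of these 14 markers was at 0 in any eye cup group. The RPE list, of 9 genes such as Rpe65, held 0.756% to 4.28% of the counts in eye cups and at most 0.0408% in retinas. Nothing stated that samples were pooled, and p-values measure the spread between mice.

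In the retina the family took a nearly fixed share of the counts, and in the eye cup a larger and more variable one. The 83 genes together held 1.16%, 1.21% and 1.16% of the counts in untreated wildtype retinas, 1.31%, 1.21% and 1.17% with dox, 1.24%, 1.26% and 1.34% in untreated PRDM13-OE retinas and 1.38%, 1.31% and 1.31% in PRDM13-OE retinas with dox. In eye cups the share was 2.85%, 3.2% and 3.07% in untreated wildtype mice, 2.29%, 2.02% and 2.65% with dox, 3.62%, 2.34% and 2.67% in untreated PRDM13-OE mice and 4.75%, 3.96% and 2.6% with dox. Every eye cup was above every retina. The 3 eye cups with the highest share, PRDM13-OE dox 1 and 2 and PRDM13-OE untreated 1, were also the 3 with the most surface epithelium reads (2.98%, 1.23% and 1.97%). The 4 eye cups with the most rod reads (5.23%, 4.11%, 4.05% and 2.62%) were among the 5 with the lowest share of ribosomal protein reads. The part of these other tissues in the share was not tested. A bulk sample also cannot separate fewer cells of a type from less RNA per cell.

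**Figure D1:**
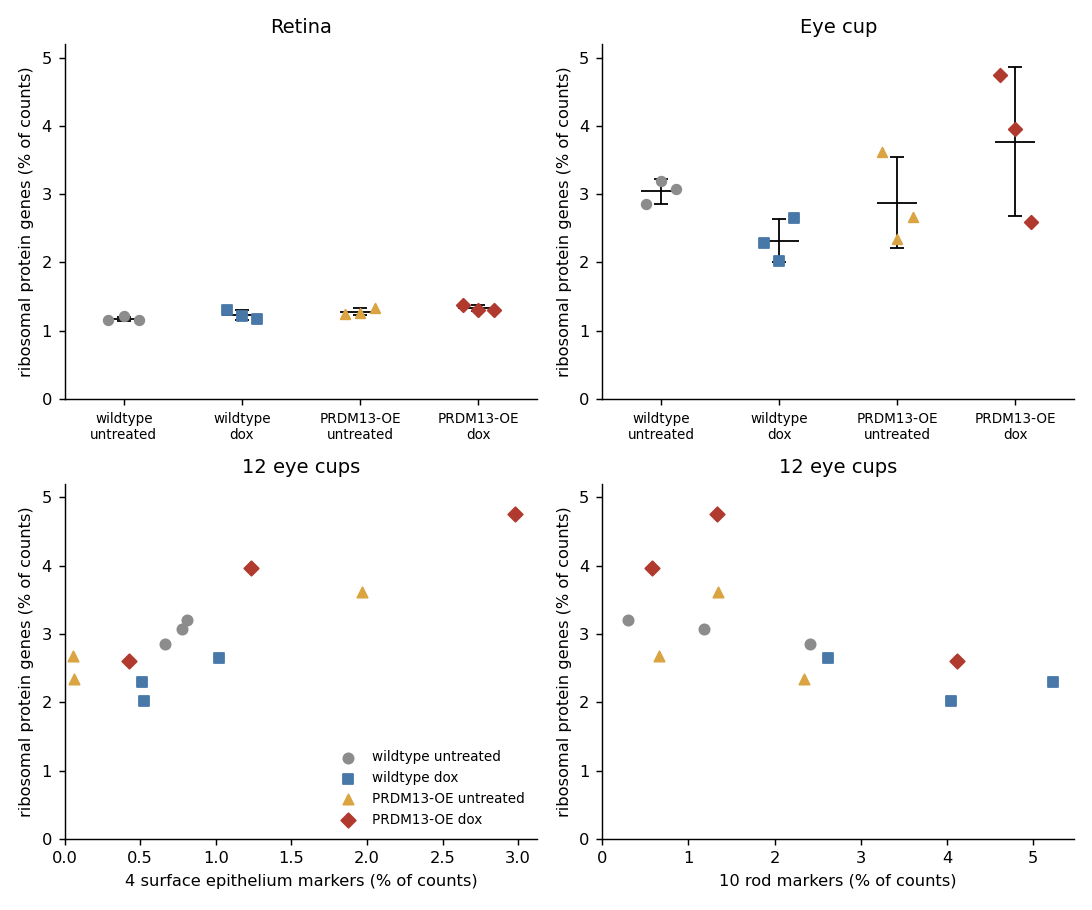
Share of all counts (%, vertical axes) held by the 83 ribosomal protein genes, with 1 point per library, the horizontal bar at the mean of 3 mice and whiskers of 1 SD; the lower panels set the 12 eye cups against their surface epithelium and rod marker shares (%, horizontal axes). Retinas stay between 1.16% and 1.38%, whereas eye cups spread from 2.02% to 4.75% and the 3 highest are those with the most epithelium reads.

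Levels between genes were compared by FPKM, which takes the length of the gene into account. In the retina the median gene of the family had 63.1 FPKM, and the highest were Rplp1 (694 ± 47.4, SD, n = 12), Rps15 (379 ± 23.3), Rpl8 (272 ± 16.3), Rpl36 (245 ± 17.3) and Rpl4 (229 ± 9.72). In the eye cup the median was 198 FPKM, and the highest were Rplp1 (2157 ± 625), Rpl36 (1070 ± 348), Rps15 (987 ± 246), Rplp0 (703 ± 330) and Rpl8 (531 ± 121). Rplp1, which with Rplp2 forms the flexible stalk that recruits translation factors, thus led both tissues, and its SD did not reach that of the next gene in either. Rps15, Rpl36 and Rplp0 lay within 1 SD of a neighbour in the eye cup. The stalk base Rplp0 had 157 ± 10.8 FPKM in the retina and its partner Rplp2 had 55.8 ± 3.76. Rpsa, which sits near the mRNA exit and is also known as a laminin receptor precursor, had 115 ± 6.27 in the retina and 265 ± 74.7 in the eye cup. Across the 12 retinas the median coefficient of variation in CPM (counts scaled to the library total by TMM) was 6.48%, and 62 of the 83 genes were under 10%. In eye cups the median was 28.9% and 0 genes were under 10%.

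At the bottom of the ranking, low values went together with overlapping or copied gene models. Rpl13a, Rpl24, Rps10 and Rpl36al, at ranks 77 to 80 of 83 in the retina, had 5.73 ± 0.411, 0.991 ± 0.197, 0.67 ± 0.132 and 0.095 ± 0.0613 FPKM. Another annotated gene on the same strand (Gm45713, Gm28037, Gm49804 and Gm49383) covers 88.6%, 98.7%, 76.9% and 92.4% of their span, and these 4 genes had 0 counts in all 24 libraries. The counting rule for reads shared by such genes is not given in the sources used here, so the level of these 4 members is uncertain. Only 1 other member, Rpl19, was overlapped in this way, over 0.952% of its span. The lowest ranks were held by the paralogs Rpl3l, Rpl39l and Rpl10l, which are best known from striated muscle, male germ cells and testis. Rpl10l had 0 counts in all 24 libraries, which allows up to 3 counts per library, counting error only. Rpl3l had 0 to 6 counts per retina and 15 to 347 per eye cup, and Rpl39l had 0 to 5 and 2 to 36. Rpl36al had 1 to 6 counts per retina and 0 to 10 per eye cup. The paralogs Rpl7l1, Rpl22l1 and Rps27l were expressed in both tissues, at lower levels than their partners: Rpl7l1 14.8 and Rpl7 131 FPKM in the retina, Rpl22l1 8.87 and Rpl22 33.7, and Rps27l 8.61 and Rps27 41.5.

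For Rps27, Rpl17 and Rpl21 the 12 retinas differed less in the sum of the gene and its copies than in how that sum was divided. For Rps27, the retinas of untreated wildtype mice had 29.5, 61.2 and 33.8 CPM, with dox 57.6, 31 and 31, untreated PRDM13-OE mice 65.3, 37.2 and 35.4, and with dox 34.7, 70.3 and 81.1. Rps27rt moved the other way, with 70, 29.2 and 64 CPM in untreated wildtype retinas and 69.6, 23.8 and 12.6 in PRDM13-OE retinas with dox. Rps27 alone had a coefficient of variation of 38.9% over the retinas, and 4.74% with its copies added (90.7 to 104 CPM). Rpl17, a protein at the mouth of the peptide exit tunnel, behaved alike: alone it ran from 31.1 to 91.7 CPM (40.2%), with its 22 copies from 161 to 186 (5.03%), and its copy Rpl17-ps10 had 38 CPM in the retina where Rpl17 had 79.2 and 30.2 where it had 91.7. Rpl21 ran from 20.4 to 55.7 CPM alone (39.1%) and from 72.7 to 101 with its copies (11.9%). Rps10 had 1.23 to 2.24 CPM alone and 53.1 to 62.8 with its copies, most of it on Rps10-ps2 shown above. In PRDM13-OE dox 1, Rps27 held 33.2% of its combined reads in the retina and 85.3% in the eye cup. For Rpl21 the untreated mice differed by genotype in both tissues: it held 44.6% to 53.1% in the retinas and 55.5% to 63.7% in the eye cups of PRDM13-OE mice, and 28.9% to 33.6% and 36.1% to 39.1% in those of wildtype mice. With dox both genotypes held high and low shares (31.4% to 55.4% and 28.1% to 51.1% in retinas). Of the 71 genes with copies, 48 held over 90% of the combined reads in the median retina and 6 held under 50%. Adding the copies to their gene was tried after seeing these data, and is given below wherever it changed a call.

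**Figure D2:**
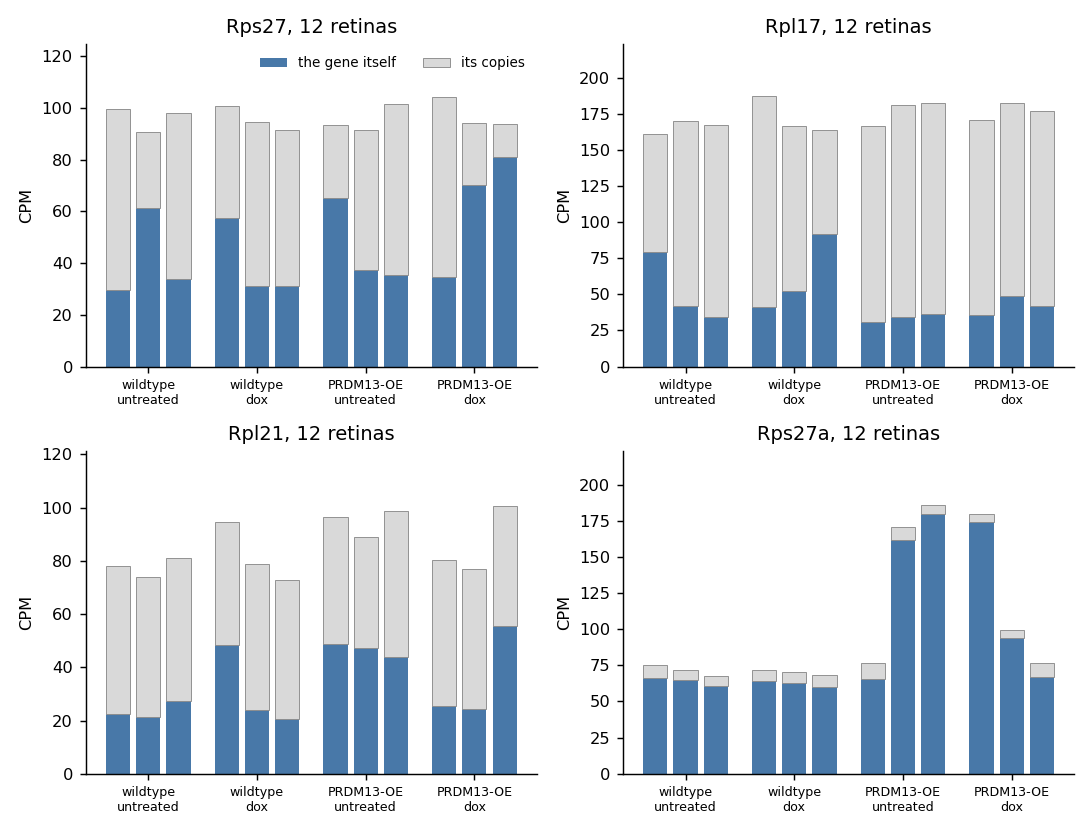
CPM (vertical axes) of Rps27, Rpl17, Rpl21 and Rps27a in the 12 retinas, 1 bar per library, with the gene in blue and its near-identical copies stacked in grey. For Rps27 and Rpl17 the bar heights hardly differ (90.7 to 104 and 161 to 186 CPM) while the blue part does; for Rps27a nearly all of the bar is the gene itself and 3 PRDM13-OE retinas stand at 162 to 180 CPM.

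Rps27a, which encodes ubiquitin fused to a small-subunit protein, stayed variable with its copies added. Its 6 wildtype retinas lay between 60 and 66.3 CPM, whereas the PRDM13-OE retinas had 65.3, 162 and 180 CPM untreated and 174, 94.2 and 67 CPM with dox. PRDM13-OE untreated replicate 1 lay within the wildtype range and the other 5 PRDM13-OE retinas lay above it. Adding its 8 copies left the coefficient of variation at 47.1% (51.8% alone). In the eye cups of the same PRDM13-OE mice it had 156, 103 and 129 CPM untreated and 175, 149 and 102 CPM with dox, where the wildtype range was 96.5 to 173. The mice with 162 and 180 CPM in the retina had 103 and 129 CPM in the eye cup, and the mouse with 174 CPM in the retina had 175 CPM in the eye cup, the highest of the 12.

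The comparison of the tissues of the same 12 mice asked how far the family differs between neural retina and eye cup. Of 82 genes tested, 80 were higher in the eye cup (edgeR, adjusted p under 0.05) and 0 were lower, where 34.2% of all genes tested were higher and 68.5% differed in either direction. Of these, 71 were also past a log2-fold change of 1, compared with 24.2% of all genes. The median log2-fold change of the 82 was 1.55, while the median over all genes was -0.01. In 78 of the genes the FPKM was higher in the eye cup of all 12 mice. That count was not made over all genes, so it does not show a trait particular to the family. With library size in place of TMM scaling, the median of all genes moved by -0.18 and 79 genes were higher and 1 lower. Eye cup shares of rods, epithelium, muscle and pigment cells all differed from the retina, and their part was not tested.

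**Figure D3:**
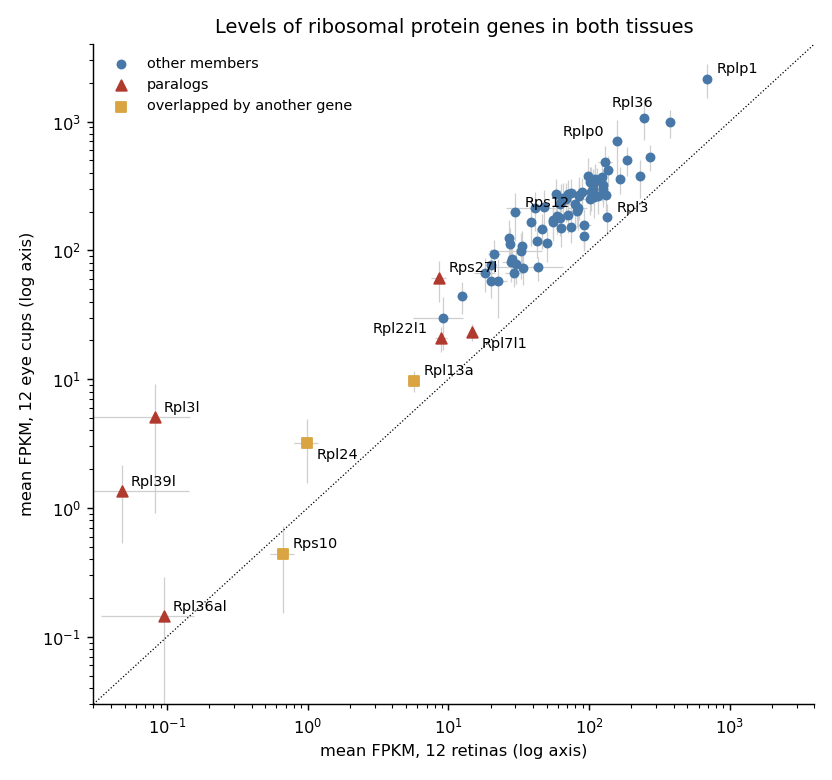
Mean FPKM of each gene in 12 retinas (horizontal) and 12 eye cups (vertical), both on log axes, with whiskers of 1 SD and a dotted line of equal level; Rpl10l, at 0 in both, is not drawn. Nearly all genes lie above the line; Rpl3l and Rpl39l lie farthest above it, and Rps10, covered by another gene model, lies below.

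All 3 stalk genes were higher in the eye cup. Rplp0 was higher in the eye cup by 2.10 (SE 0.18, adjusted p = 3.98e-09), Rplp1 by 1.58 (SE 0.10, adjusted p = 4.02e-11) and Rplp2 by 1.56 on the log2 scale. Among the genes with the smallest p, Rpl36a went from 21.2 ± 1.99 to 93.5 ± 26.8 FPKM, a log2-fold change of 2.08 (SE 0.10, adjusted p = 4.75e-13). Rpl36, a large-subunit protein, rose 4.12-fold and Rpl38, known for its part in the translation of Hox mRNAs, 3.67-fold. Rps12, a small-subunit protein linked to cell competition, went from 30 ± 2.62 to 198 ± 79.5 FPKM, a log2-fold change of 2.64. The p53-responsive paralog Rps27l rose by 2.75 (SE 0.13), compared with 2.28 (SE 0.18) for Rps27, and both sets of 12 libraries were without overlap. With copies added, Rps27 rose by 1.70 (SE 0.09). Of the other paralog pairs, Rpl22l1 rose by 1.18 and Rpl22 by 1.08, Rpl7 rose by 1.00, and the partners of Rpl10l and Rpl39l, Rpl10 and Rpl39, by 2.19 and 2.04. Rps4x, an X-linked small-subunit gene, rose by 1.33. The muscle paralog Rpl3l rose by 5.79 (SE 0.48, adjusted p = 1.69e-09) from 0 to 6 counts per retina, so the size depends on the prior count. Its eye cup values followed the skeletal muscle list: the 3 highest eye cups, at 21.5, 15.6 and 12.4 CPM, held 0.256%, 0.262% and 0.195% of their counts in the 7 muscle genes, and the 2 lowest, at 0.855 and 1.99 CPM, held 0.0382% and 0.028%.

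The genes that rose least were Rpl3 (0.38, SE 0.11, adjusted p = 0.00388), its FPKM going from 135 ± 4.51 to 180 ± 49, Rpl9 (0.47) and Rpl7l1 (0.62). Rpl3, a core protein near the peptidyl transferase centre, was higher in the eye cup in 11 of 12 mice, and Rps27a in 10. Rps10 was higher in 2 of 12 mice and did not pass (-0.68, SE 0.34, adjusted p = 0.0854). It was lower in the eye cup in the fit with the mouse as block (-0.86, adjusted p = 0.0449) and with library size scaling (adjusted p = 0.0327). With its copies added, it was 1.68 higher in the eye cup (adjusted p = 2e-11). Rpl36al also did not pass (0.46, SE 0.63, adjusted p = 0.545), and with copies added all 82 tested genes were higher. Outside the name rule, the ribosomal proteins Rps3a1 (1.25), Fau (1.25) and Rack1 (1.16) were higher as well.

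Within the retina, the study's main contrast set PRDM13-OE mice with dox against wildtype mice with dox. Few ribosomal protein genes passed: of 81 tested, 1 was higher and 2 were lower, 3 in all, where 12.5% of all genes tested passed, and 0 were past a log2-fold change of 1. The median of the 81 was 0.03 and that of all genes 0.01. Rpl10a, whose protein lies beside the exit site for spent tRNA, had 210, 198 and 212 CPM in PRDM13-OE retinas with dox and 256, 245 and 245 CPM in wildtype retinas with dox. The groups did not overlap, and Rpl10a fell by 0.28 on the log2 scale (SE 0.05, adjusted p = 0.00374), a fold of 0.826. It stayed under the threshold when each of the 6 libraries was left out in turn (adjusted p from 0.00435 to 0.0267). Its only near-identical copy took little, with at least 97.5% of their combined reads on Rpl10a in every retina.

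Rps6, whose phosphorylation is the usual readout of mTORC1 activity, had 261, 260 and 264 CPM in PRDM13-OE retinas with dox and 305, 289 and 283 CPM in the wildtype ones. It fell by 0.17 (SE 0.05, adjusted p = 0.0415) without overlap, but passed in only 1 of the 6 fits with a library left out. Its adjusted p was 0.314 with library size scaling and 0.0563 with its copies added. Rps27a was higher by 0.84 (SE 0.25, adjusted p = 0.0493), passed in 1 of 6 such fits, and was not called by DESeq2 (adjusted p = 0.18). Without PRDM13-OE dox replicate 1, its log2-fold change was 0.36. The next genes by p were Rpl36a, with 36.5, 36 and 36.7 CPM against 43.7, 41.9 and 38.8 (-0.19, adjusted p = 0.0783), and Rpl5 (-0.13, adjusted p = 0.113), which binds Mdm2 when ribosome assembly is disturbed. Library size in place of TMM gave 8 higher and 1 lower genes. Over all genes, that scaling moved the share of calls that were higher from 40% to 68.4%.

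In the same contrast 7 of the 10 rod genes were lower, with the rod list at 5.74% to 6.33% of counts with PRDM13-OE and dox and 7.32% to 7.46% in wildtype with dox. All 9 lens genes tested, 6 of 9 pigment genes and all 5 blood genes were lower too. So were 3 of 5 bipolar, 2 of 5 amacrine and 3 of 5 endothelial genes, and of 5 Müller glia genes 2 were higher and 3 lower. Over all 20560 genes tested, 1030 were higher and 1545 lower. The lens list held 1.04%, 0.428% and 0.00935% of counts in wildtype retinas with dox and at most 0.00255% in the PRDM13-OE ones, and the blood list 0.00304% to 0.00758% and at most 0.000122%. How far these cell types bear on Rpl10a and Rps6 was not tested.

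The comparison of PRDM13-OE mice with and without dox shares the dox-treated PRDM13-OE retinas with the one above. Of 81 genes, 0 were higher and 2 were lower, where 5% of all genes passed. Untreated PRDM13-OE retinas had 246, 272 and 280 CPM of Rpl10a and 290, 303 and 308 CPM of Rps6, above every retina of the dox group. Rpl10a fell by 0.37 with dox (SE 0.06, adjusted p = 0.00298), and in each of the 6 fits with a library left out it passed. Rps6 fell by 0.20 (SE 0.05, adjusted p = 0.0436) and passed in 1 of 6, and its adjusted p was 0.176 with library size scaling and 0.0914 with the replicate block. Without the mouse labelled PRDM13-OE untreated replicate 1, the falls were 0.42 (adjusted p = 0.0007) and 0.23 (adjusted p = 0.03). Rpl17 (0.30, adjusted p = 0.171), Rpl7a (-0.24) and Rpl5 (-0.13) came next by p. In this comparison 7 of 10 rod, 2 of 5 bipolar, 2 of 5 endothelial, 1 of 5 amacrine, 1 of 9 lens and 5 of 5 blood genes were also lower. Of 5 Müller glia genes 2 were higher and 1 lower. The rod list was at 7.35% to 7.9% of counts without dox. In the interaction below, where 3.03% of all genes passed, 6 of 10 rod, 2 of 5 bipolar, 2 of 5 endothelial and 4 of 5 blood genes were lower. There, 1 of 5 Müller glia genes was higher and 1 lower. Their part in the Rpl10a and Rps6 values was not tested.

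The interaction of genotype and dox over the 12 retinas tested whether dox changed a gene differently in the genotypes. Rpl10a was the 1 member of 81 that passed (-0.31, SE 0.08, adjusted p = 0.0462), where 3.03% of all genes did. Untreated wildtype retinas had 264, 264 and 247 CPM of it, so that its 3 lowest retinas of 12 were the PRDM13-OE retinas with dox. Without the mouse labelled PRDM13-OE untreated replicate 1 the interaction was -0.37 (adjusted p = 0.0155), and it did not pass in the other 11 fits with a library left out, nor with its copy added (adjusted p = 0.0542), library size scaling (0.161) or the replicate block (0.0814). Rps6 (-0.24, SE 0.07, adjusted p = 0.0873), Rpl36a (-0.35, adjusted p = 0.101), Rplp0 (-0.25, adjusted p = 0.121) and Rpl7a (-0.35, adjusted p = 0.302) followed.

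**Figure D4:**
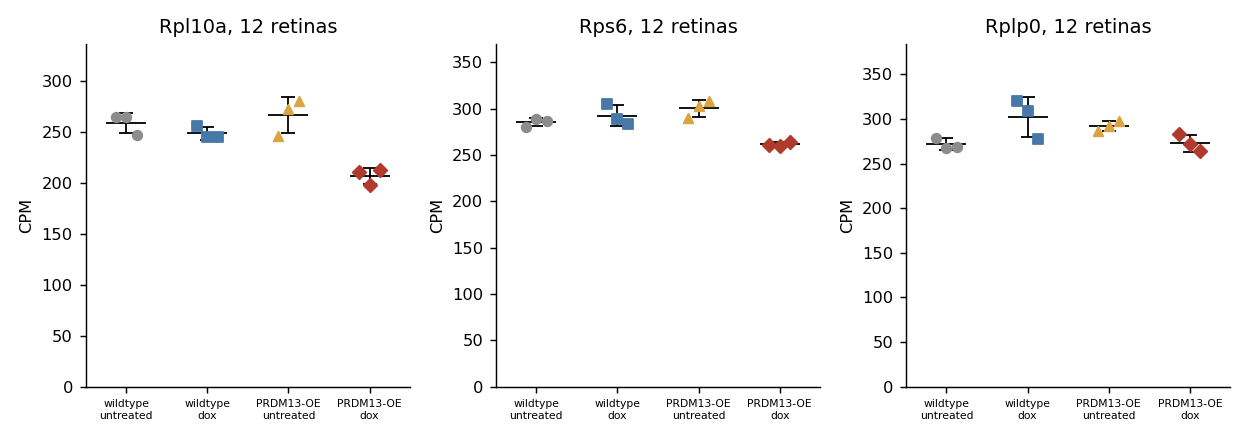
CPM (vertical axes, from 0) of Rpl10a, Rps6 and Rplp0 in the 12 retinas, with 1 point per mouse, a bar at the mean of 3 and whiskers of 1 SD. The PRDM13-OE retinas with dox are the lowest 3 for Rpl10a (198 to 212) and Rps6 (260 to 264), whereas for Rplp0 the dox-treated groups of both genotypes overlap (264 to 320 over all 12).

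In wildtype retinas, dox water with sucrose against no treatment gave no member of the family past the threshold. Of 81 genes tested, 0 passed with edgeR, where 0.00485% of all genes did. At an unadjusted p under 0.05 there were 6, all higher, where 9.32% of all genes were past it, and DESeq2 called 1, Rpl30 (adjusted p = 0.0424), where it called 0.451% of all genes. Rpl30 had 112, 106 and 98.9 CPM with dox and 73.4, 89.5 and 90.1 without, a difference of 0.32 (SE 0.09, adjusted p = 0.274) that was 0.12 with its copies added. Rpl36a (0.24), Rpl18 (0.18), Rplp0 (0.15) and Rpl23a (0.21) came next by p. The median of the 81 genes was 0.09 and 74 were above 0, on a scale where the median of all genes was -0.01. With 0 called, 9 of 9 lens genes (median 3.47), 6 of 6 fibroblast genes (0.87), 9 of 9 pigment genes (0.53), 5 of 5 Müller glia genes (0.13) and 5 of 5 blood genes (0.13) were above 0 as well. So were 3 of 3 surface epithelium genes (4.16), a list with at most 0.00128% of counts in these retinas. Of 10 rod genes 4 were above 0 (-0.08). The part of these cell types was not tested.

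Untreated PRDM13-OE retinas were also compared with untreated wildtype ones. Of 80 genes tested, Rpl21 alone passed, where 0.00484% of all genes did. It had 48.6, 47.3 and 44 CPM in PRDM13-OE retinas and 22.6, 21.5 and 27.2 CPM in wildtype ones, higher by 0.98 (SE 0.10, adjusted p = 0.00595), and by 0.95 (adjusted p = 0.00794) without the mouse labelled PRDM13-OE untreated replicate 1. With dox, however, Rpl21 was at 25.5, 24.2 and 55.7 CPM in PRDM13-OE retinas and at 48.3, 23.9 and 20.4 CPM in wildtype ones, so both levels occurred in both genotypes. With its 56 copies added the difference was 0.29 (adjusted p = 0.997), in a fit over all 12 retinas the adjusted p was 0.93, and without wildtype untreated replicate 1 it was 0.0978. Rps27a had a larger difference, 1.09 (SE 0.26, adjusted p = 0.995), but PRDM13-OE replicate 1 lay within the wildtype range. Without that mouse, the one with few Gm13394 counts, Rps27a was higher by 1.42 (SE 0.08, adjusted p = 5.28e-06). Rpl37a (0.29), Rpl7a (0.45) and Rps21 (0.35) came next by p, all at an adjusted p of 0.995.

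In that comparison the genes were mostly on one side. Of the 80, 78 were above 0 with a median of 0.13, and at an unadjusted p under 0.05 there were 21, 20 higher and 1 lower, where 3.76% of all genes were past it. In 35 genes the 3 PRDM13-OE retinas were all above the 3 wildtype retinas, and in 0 all below, where 9.55% of all genes did not overlap. The median stayed between 0.09 and 0.14 when each of the 6 retinas was left out in turn. Markers of other tissues also lay mostly on one side, with 0 called: 7 of 7 skeletal muscle genes (median 2.19), 5 of 6 fibroblast genes (1.59), 9 of 9 pigment genes (0.19) and 3 of 3 surface epithelium genes (1.64) were above 0, and 9 of 9 lens genes below 0 (-2.64). Their part in the shift was not tested. Genes of 1 library share its depth and scaling, and no test was made over the family.

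In eye cups, PRDM13-OE mice with dox had more ribosomal protein reads on average than wildtype mice with dox. The family shares of the groups overlapped, however, and no gene passed the adjusted threshold. Of 82 genes tested, 0 passed, where 0.0184% of all genes did. At an unadjusted p under 0.05 there were 51, all higher, where 8.24% of all genes were past it, and DESeq2 called 1, Rpl17, where it called 0.547% of all genes. The median log2-fold change was 0.77 and 80 of the 82 were above 0, with a median of all genes of 0.05. Rpl17 had 191, 130 and 129 CPM with PRDM13-OE and 61.6, 57.6 and 81.4 CPM in wildtype (1.21, SE 0.26, adjusted p = 0.597). Rps27 had 305, 199 and 180 CPM against 112, 116 and 137 (0.95, SE 0.27), Rpl36 had 499, 497 and 306 against 216, 188 and 287 (0.95), Rpl35a differed by 0.84 and Rpl38 by 0.73, all at the same adjusted p. In 17 genes the groups did not overlap, all higher, where 15.7% of all genes did not overlap.

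The count rested on 1 eye cup. PRDM13-OE dox replicate 3 had the lowest ribosomal protein share of its group (2.6%, against 4.75% and 3.96%), the highest rod share (4.11%, against 1.33% and 0.586%) and the lowest epithelium share (0.425%, against 2.98% and 1.23%). Without it, 53 genes were higher, where 10.4% of all genes passed in either direction. All 4 epithelium markers were above 0 in the full comparison and all 10 rod markers below 0, with 0 called in both lists and medians of 1.22 and -0.83. All 7 skeletal muscle genes were above 0 (median 1.56) and all 9 lens genes below 0 (median -3.27), with 0 called, and of 5 blood genes 3 were lower (median -5.10). The part of these tissues in the difference was not tested.

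Dox in wildtype eye cups went with lower values. Of 82 genes tested, 0 passed with edgeR, where 0% of all genes did, and the lowest adjusted p was 0.0673. At an unadjusted p under 0.05 there were 68, all lower, where 29.9% of all genes were past it, and DESeq2 called 51, all lower, where it called 18.5% of all genes. The median was -0.62 and that of all genes -0.05, which library size scaling moved by 0.18. Rps27 had 112, 116 and 137 CPM with dox and 229, 212 and 243 CPM without (-0.93, SE 0.16, adjusted p = 0.0673), without overlap. Rpl38 (77.9, 70.2 and 96.5 against 134, 154 and 146 CPM), Rpl17 (-0.86), Rpl36 (-0.93) and Rpl36a (-0.80) had the same adjusted p. Rplp0 overlapped, with 722, 625 and 1041 CPM against 866, 1378 and 1031 (-0.47, adjusted p = 0.247), and Rpl3 hardly differed (-0.04, SE 0.16).

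In 65 of the 82 genes the 3 eye cups with dox were all below the 3 without, where 37.5% of all genes did not overlap. Without wildtype dox replicate 3, 37 genes were lower, where 6.59% of all genes passed, and without wildtype untreated replicate 1, 9 were lower, where 13.5% passed. The rod list held 5.23%, 4.05% and 2.62% of counts with dox and 2.41%, 0.306% and 1.18% without, all 10 of its genes being above 0 with a median of 1.43, and the pigment list was below 0 in all 9 genes (median -0.77). Surface epithelium markers had a median of -0.12. Bipolar, amacrine and ganglion cell markers had medians of 1.51, 1.40 and 1.43, and blood and skeletal muscle markers of -1.93 and -0.80, with 0 called in these lists. Mitochondrial genes held 4.61%, 3.91% and 5.24% of counts with dox and 11%, 7.17% and 8.15% without. The part of these tissues and of the mitochondrial reads was not tested.

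No gene passed in the other eye cup comparisons. Between untreated PRDM13-OE and untreated wildtype eye cups, 0 of 82 genes passed, where 0% of all genes did, and DESeq2 called 0, where it called 0.0141% of all genes. At an unadjusted p under 0.05 there were 2, Rpl21 and Rpl3l, where 1.87% of all genes were past it. Rpl21 had 121, 126 and 191 CPM against 73, 79.8 and 85.6 (0.88, SE 0.22, adjusted p = 1). The groups did not overlap, but with its copies added the difference was 0.17. Rpl3l differed by 1.24 (SE 0.53), with the skeletal muscle list at 0.0731%, 0.195% and 0.256% of counts in PRDM13-OE and 0.0702%, 0.136% and 0.0572% in wildtype eye cups (7 of 7 genes above 0, median 1.07). Rpl7l1 (-0.28), Rpl28 (-0.28) and Rpl36a (-0.23) came next. Between PRDM13-OE eye cups with and without dox, 0 of 82 passed, where 0.0139% of all genes did, 0 were at an unadjusted p under 0.05, where 4.14% of all genes were, and DESeq2 called 0, where it called 0.251% of all genes. The median was 0.24 and that of all genes 0.05, which library size scaling moved by 0.11. Of 5 blood genes 3 were lower (median -6.14), and with 0 called, 4 of 4 surface epithelium genes (1.03) and 9 of 10 rod genes (0.44) were above 0 and 6 of 6 fibroblast genes below 0 (-0.92); their part was not tested. Rpl21 differed by -0.68 (adjusted p = 0.975) and by -0.08 with its copies added, and Rpl7a, Rps26, Rpl23 and Rpl4 by 0.76, 0.60, 0.47 and 0.57 at that adjusted p. Over the 12 eye cups, the genotype by dox interaction passed in 0 of 82 genes, where 0% of all genes passed. At an unadjusted p under 0.05 there were 38, all above 0, where 6.4% of all genes were past it. The median was 0.83 and 77 of the 82 were above 0, with a median of all genes of 0.02. In the marker lists, with 0 called, the interaction median was -0.98 for rods, -1.08 for bipolar cells, 0.54 for skeletal muscle, 1.15 for surface epithelium and -4.23 for blood, and their part was not tested. DESeq2 called 0, where it called 0.113% of all genes. Without the mouse labelled PRDM13-OE untreated replicate 1 the number of calls was also 0 in these 3 comparisons. The smallest interaction p belonged to Rpl28 (1.09, SE 0.36, adjusted p = 0.753), Rpl11, Rpl23, Rpl36a and Rpl35a.

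**Figure D5:**
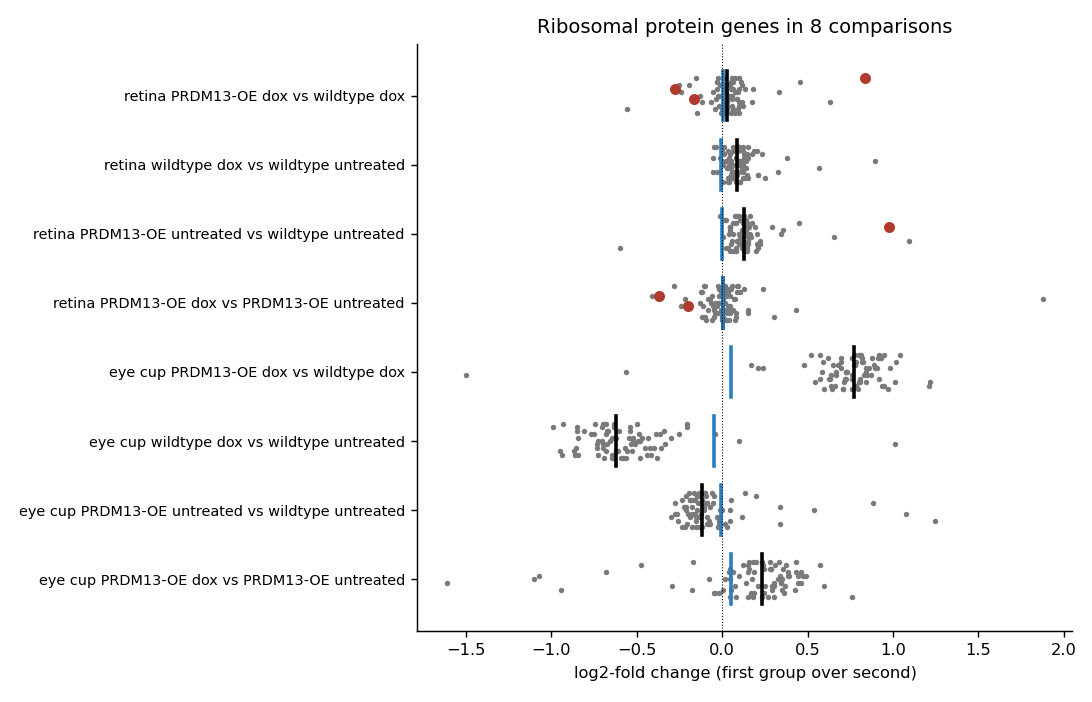
Log2-fold changes (horizontal axis) of the ribosomal protein genes in 8 comparisons, with 1 grey point per gene and the genes at an adjusted p under 0.05 in red; black bars mark the median of the family and blue bars the median of all genes tested. In retinas the family stays close to 0, whereas in eye cups it lies as a block at a median of 0.77 (PRDM13-OE against wildtype, with dox) and of -0.62 (dox against no dox, wildtype) with no gene in red.

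Rplp0 and Actb were the reference genes of the study's quantitative PCR, so their levels are given side by side. Over the 12 retinas Rplp0 ran from 264 to 320 CPM and Actb from 438 to 533, and neither passed in a retina comparison, with Rplp0 between -0.15 and 0.15 in the comparisons of pairs of groups. Over the 12 eye cups Rplp0 ran from 575 to 2087 CPM (coefficient of variation 46.6%) and Actb from 1168 to 2277. PRDM13-OE eye cups with dox had 2087, 1640 and 632 CPM of Rplp0 and 2081, 1980 and 1168 of Actb. Wildtype eye cups with dox had 722, 625 and 1041 CPM of Rplp0 and 1175, 1230 and 1649 of Actb, for differences of 0.91 (SE 0.47, adjusted p = 0.597) and 0.40 (SE 0.33, adjusted p = 0.678). From retina to eye cup Actb rose by 1.96 (SE 0.10), close to the 2.10 of Rplp0.

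Genes that act with ribosomal proteins were followed in 3 lists. In retinas of PRDM13-OE and wildtype mice with dox, 2 of 30 ribosome biogenesis genes were higher, Rrp9 (0.27) and Gar1 (0.46), both parts of small nucleolar ribonucleoproteins, and 0 were lower, where 12.5% of all genes passed in either direction. Of 20 translation factors and related genes known for terminal oligopyrimidine mRNAs, a list that also holds Fau, Rack1 and the biogenesis gene Npm1, 1 was higher, the initiation factor subunit Eif3e (0.34, SE 0.05, adjusted p = 0.00126), which also passed against untreated PRDM13-OE retinas (0.32) and in the interaction (0.39). Of 15 genes of mTORC1 and its translation targets, 1 was higher, the S6 kinase Rps6kb2 (0.47, SE 0.12, adjusted p = 0.028). In eye cups, 0 genes of these 3 lists passed in any of the comparisons of genotype or dox. The translation factor list nevertheless had medians of 0.49 for PRDM13-OE against wildtype with dox and of -0.30 for dox in wildtype mice, beside 0.77 and -0.62 for the ribosomal protein genes, whereas the biogenesis list had 0.05 and 0.14.

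Between the tissues, 16 of the 20 translation factors were higher in the eye cup and 3 lower, against 9 higher and 14 lower of the 30 biogenesis genes and 6 higher and 8 lower of the 15 mTORC1 genes. Of all genes tested, 68.5% passed in either direction and 34.2% were higher. The medians of the 3 lists were 0.71, -0.15 and -0.28, beside 1.55 for the ribosomal protein genes. The translation factors with the largest rises were Tpt1 (1.96), Eef1b2 (1.51) and Eef1d (1.38), and Eef2 (0.24) and Eif4b (-0.23) were among the others. Nap1l1, a histone chaperone, was lower (-0.65), and among the biogenesis genes Nhp2 rose by 1.23 and Rrn3, which starts transcription of ribosomal DNA, was at -0.55.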

How the data were processed

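Polyadenylated RNA of 12 neural retinas and the 12 eye cups of the same mice was sequenced, and the submitters' notes name CASAVA and HISAT2 with GRCm39. The counting tool, annotation release and strand setting are not given in the sources used here. The authors deposited 1 table with gene counts (not normalized) and FPKM per library, of which 48 of 118 columns were used. Its group means, fold changes and p-values hold the study's own comparisons and were not used.

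For each test, counts were scaled by TMM over the libraries compared (all 24 for the tissue comparison). Genes under 10 counts summed over those libraries were dropped. edgeR 4.0.16 in R 4.3.3 (glmQLFTest) was run with Benjamini-Hochberg adjustment over all genes tested. The CPM values given beside the tests were scaled by TMM over all 12 libraries of each tissue. Calls needed an adjusted p under 0.05. The tissue comparison used all 24 libraries and its pairs are the mice, so the mouse block is the alternative given in the closing section. DESeq2 1.42.0, library size scaling, no filter, all 12 libraries of a tissue, a replicate block, a fold threshold and leaving out each library were alternatives, 159 fits in all, and adding copies to their gene was added after seeing the data. Copies were genes with an annotated GENCODE transcript matching at least 95% over at least 80% of the member's coding sequence. The match also had to span at least 50% of the copy's gene length. Named members were the paralog pairs, the stalk genes, Rpsa and Rpl21, up to 5 called members per direction (or the 5 smallest p) in each comparison, the 5 highest and 5 lowest by FPKM in each tissue, and the 5 largest rises and falls between tissues. Rps3a1, Fau, Rack1 and Actb were added, and any other gene was picked with its values known. Some items are not reported here. The members and lists were chosen with earlier results of these data known. The scripts were tested on simulated counts. Depth of 15825059 to 24908314 counts per library limits the precision of low genes.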

Additional observations from a re-analysis of the deposited data

Results flagged for a closer look

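Rpl10a in the retina was singled out because the effect of dox differed between the genotypes by a test of the difference itself. The genotype by dox interaction was -0.31 on the log2 scale (SE 0.08, edgeR adjusted p = 0.0462). The PRDM13-OE retinas with dox had 210, 198 and 212 CPM, and the other 9 retinas 245 to 280 CPM. The call passed in 1 of 12 fits with a library left out, with values between -0.37 and -0.27. It did not pass for Rpl10a with library size scaling (-0.24, adjusted p = 0.161), the replicate block (adjusted p = 0.0814) or the copy added (adjusted p = 0.0542).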

How the results depend on the processing

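Calls over all genes changed with the setting: for dox in wildtype eye cups, edgeR called 0% of all genes and DESeq2 18.5%. Where the share of all genes is not given, a change in a count cannot be told apart from a change over all genes. Counts of ribosomal protein genes called changed most in eye cups. For PRDM13-OE against wildtype with dox the count was 0, 1 with DESeq2, and 0 to 53 with a library left out. For dox in wildtype eye cups it was 0, 51 with DESeq2, 4 with library size scaling, 11 with no filter, and 0 to 37 with a library left out. The other eye cup comparisons stayed at 0 under every alternative run. In retinas of PRDM13-OE and wildtype mice with dox the count of 3 became 0 past a log2-fold change of 1, 9 with library size scaling, 6 with no filter, 1 in the fit of all 12 libraries, and 1 to 4 with a library left out. For dox in wildtype retinas it was 1 with DESeq2, 3 with no filter and 0 to 0 with a library left out. For untreated PRDM13-OE against wildtype retinas the count of 1 became 0 past the fold, in the fit of all 12 libraries and with copies added, 5 with no filter, and 0 to 2 with a library left out. For PRDM13-OE retinas with and without dox the count of 2 became 0 past the fold, 1 with library size scaling, 6 with no filter, 1 with the replicate block, and 1 to 2 with a library left out. The retina interaction count of 1 became 0 past the fold, with library size scaling, with the replicate block and with copies added, 3 with DESeq2, 4 with no filter, and 0 to 1 with a library left out. In the tissue comparison the 80 calls stayed between 71 (past the fold) and 82 (copies added), with 81 in the fit with the mouse as replicate block, where 80 were higher and Rps10 was lower (-0.86, adjusted p = 0.0449). Within tissues, deviations of same-numbered mice correlated between -0.536 and 0.639, and 0 comparisons had all 3 pairs above 0.1, so the numbers were not taken as pairs.

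Direction reversed in 3 values for single genes: Rpl17 with copies added in PRDM13-OE retinas with and without dox (-0.0019), Rps10 with copies added between the tissues (1.68), and Rpl36al between the tissues without wildtype untreated replicate 1 (-0.64, with a library left out from -0.64 to 0.79). Of the other values for single genes, 814 kept direction and side of the threshold, 45 newly passed and 40 no longer passed; the cause was not tested.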
